A study of Rattus norvegicus with 69 samples.

Results

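The kinesin genes described here are all genes whose symbol begins with Kif or Klc followed by a digit, the nomenclature of the kinesin heavy chains and kinesin light chains. The rat array carried 59 probe sets that were annotated with 1 such symbol each, out of 31042 probe sets used, and they represented 31 genes. Of these genes 15 had 1 probe set and 16 had several, and a gene with several was represented by the probe set with the highest mean signal over all samples. Another 4 probe sets, annotated with several symbols of which 1 was Kif1b, were left out. The rule reads symbols and no measured value, although it was set with earlier results of these data known.

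RNA was measured on 69 arrays, 1 per sample, in tissue and cells of rats; the labels name no mutant allele and no treatment in any group. The 49 tubule samples were seminiferous tubules of Sprague Dawley rats aged 55 to 60 days, microdissected by transillumination into 10 stage groups of the cycle of the seminiferous epithelium: stage I, then II-III, IV-V and VI, the parts VIIa.b and VIIc.d of stage VII, then VIII and IX-XI, and last XII and XIII-XIV. Stage IV-V had 4 samples and every other group 5. Each tubule sample pooled 2 rats with 25 segments per rat. Isolated cells were 4 samples of Sertoli cells, about 85% pure, 4 of pachytene spermatocytes and 4 of round spermatids from rats of the same age, and, from younger rats of 18 to 20 days, 3 samples of spermatogonia plus early spermatocytes; the germ cells were separated by size in an elutriation centrifuge and were 85% to 95% pure by the labels. Whole testis gave 5 samples, whose age is not given in the sources used here. The source names of the samples titled IX-XI read IX-XII, so those samples may hold stage XII tubules. The labels call the tubule samples of a stage independent and have segments of all stages taken from every rat, so samples of different stages may share rats, but no label ties a replicate number to a pair of rats. For isolated cells and whole testis the labels do not say how replicates were separated, so p-values there measure the spread between these samples, and the number of arrays limits the precision.

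Kinesins are motor proteins that use ATP to move along microtubules, mostly towards the plus end, and some of them shorten microtubules instead. Heavy chains carry the motor domain, and the light chains of kinesin-1 bind cargo. In dividing cells kinesins build the spindle, move chromosomes and organize the spindle midzone before cytokinesis. In cilia and in the growing sperm tail the Kif3a and Kif3b motor carries intraflagellar transport particles outward. In the testis these tasks follow one another: spermatocytes complete both meiotic divisions at the end of the cycle, in stage XIV, and the spermatids that result are joined by intercellular bridges and grow a flagellum over the following cycle.

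The stretch of 250 bases before the transcription start is shown for 4 of the 5 motors of cell division that peaked at stage I, because promoter elements shared by genes of cell division can be looked for in it. The fifth, Kif20a, held CCAAT 3 times and TTTGAA 0 times and is not printed. The sequences are from RefSeq on the rat assembly GRCr8, 5′ to 3′ on the strand of the gene. Kif18b lies at chr10:88389692-88389941 on the minus strand, Kif20b at chr1:241840766-241841015 on the plus strand, Kif22 at chr1:191080879-191081128 on the minus strand and Kif23 at chr8:71320585-71320834 on the minus strand. Capitals mark CCAAT and TTTGAA, read on both strands, so that ATTGG and TTCAAA are the same motifs on the other strand. CCAAT is the core bound by the factor NF-Y, and TTTGAA is a form of the cell cycle homology element that occurs in promoters of genes of G2 and mitosis.
Kif18b: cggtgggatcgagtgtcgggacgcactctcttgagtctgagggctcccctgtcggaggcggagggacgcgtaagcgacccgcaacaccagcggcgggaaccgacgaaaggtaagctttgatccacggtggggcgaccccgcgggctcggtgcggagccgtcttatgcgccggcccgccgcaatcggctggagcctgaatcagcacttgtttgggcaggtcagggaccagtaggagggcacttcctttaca
Kif20b: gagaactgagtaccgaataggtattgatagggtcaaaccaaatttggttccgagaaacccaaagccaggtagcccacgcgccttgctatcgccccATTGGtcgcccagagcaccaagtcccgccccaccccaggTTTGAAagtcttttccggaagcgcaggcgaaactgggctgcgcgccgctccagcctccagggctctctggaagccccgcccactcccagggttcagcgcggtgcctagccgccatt
Kif22: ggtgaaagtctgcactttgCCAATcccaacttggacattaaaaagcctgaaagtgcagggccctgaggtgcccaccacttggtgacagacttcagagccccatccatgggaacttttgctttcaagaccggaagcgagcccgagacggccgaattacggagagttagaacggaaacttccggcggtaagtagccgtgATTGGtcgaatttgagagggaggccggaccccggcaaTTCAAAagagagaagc
Kif23: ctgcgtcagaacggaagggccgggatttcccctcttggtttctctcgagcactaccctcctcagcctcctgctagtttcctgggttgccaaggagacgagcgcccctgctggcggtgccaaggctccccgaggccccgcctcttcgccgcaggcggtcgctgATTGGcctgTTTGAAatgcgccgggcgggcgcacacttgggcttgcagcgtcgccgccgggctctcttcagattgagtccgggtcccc

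Kif20b, Kif22 and Kif23 each held both motifs and Kif18b held neither. Of the 28 members with a promoter in the table (Kif7, Kif14 and Kif5a had none), 11 held CCAAT, 5 held TTTGAA and 4 held both. The other form of the element, TTCGAA, was found in 0 of them. Over all 33469 promoters of the table in the same window, 34% held CCAAT, 16.2% held TTTGAA, 1.4% held TTCGAA and 5.87% held CCAAT together with TTTGAA. Among the 8 members with their peak at stage I described next, 5 held CCAAT and 3 held both. These counts describe letters in a window, and binding was not measured.

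Over the cycle, the largest group of stage-regulated kinesin genes was highest at stage I. Klc3 and Kif7 were highest at VIII or IX-XI, as was Kif2c by its representing probe set but not by its second. Kif16b and Kif15 were highest between II-III and IV-V, and 16 of 29 tested genes were not called. A gene is called stage-regulated where limma's F-test over the 10 stages gave an adjusted p under 0.05 and its highest and lowest stage means were at least 2-fold apart. Fold and log2 changes are on the scale of log2(signal + 5.11), which brings low signals closer together, while levels are linear signals. Of the 31 genes, 29 were tested, since Kif1b exceeded the filter signal of 43.7 in 0 of 69 samples and Kif1c in 4, none of them tubules. Of the 29, 13 were stage-regulated (44.8%), against 32.5% of all 22258 probe sets tested. The median range over stages was 1.16 on the log2 scale for the 29 members and 0.886 for all probe sets. By role, 7 of 10 motors of cell division were stage-regulated, 3 of 5 motors of cilium and flagellum, 1 of 7 kinesin-1 chains, 1 of 4 tested cargo motors of the kinesin-3 and kinesin-4 families and 1 of 3 other members.

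The 13 stage-regulated members had their peaks unevenly placed. Stage I was the peak of 8 (61.5%): Kif18b, Kif20b, Kif20a, Kif23, Kif22, Kif3a, Kif3b and Kif2a. Stage I was the peak of 713 of the 7240 stage-regulated probe sets overall (9.85%). Of the other 5 members, Klc3 and Kif2c peaked at stage IX-XI by their representing probe sets, Kif16b at II-III, Kif15 at IV-V and Kif7 at VIII. In each of the 13, every sample of the peak stage lay above every sample of the lowest stage. Both stages were picked from these same values, and members not called, such as Kif3c and Kif1a, did not overlap either. The share of all probe sets without overlap was not counted. In these bulk samples, fewer cells of a type and less RNA per cell cannot be told apart.

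**Figure D1:**
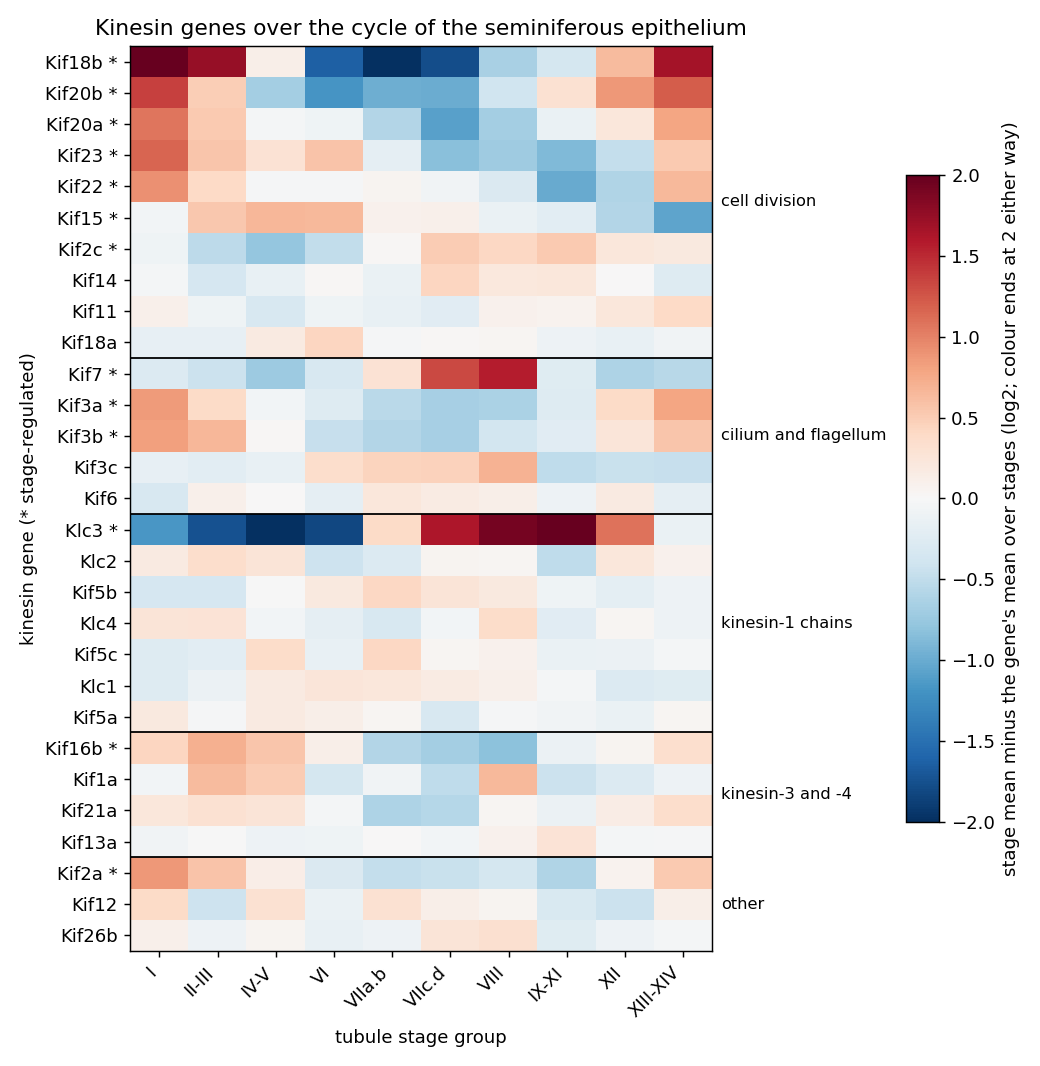
Stage means of the 29 tested kinesin genes, in columns by stage group and in rows by role, coloured by the difference of the stage mean from the gene's mean over the stages (log2 of signal plus 5.11; red higher, blue lower). An asterisk marks the 13 stage-regulated genes; most of the cell division motors and Kif3a, Kif3b and Kif2a are red at stages XIII-XIV and I, and Klc3 and Kif7 are red at VIIc.d and VIII.

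Marker genes of the cell types in the tubules differed over the same stages. The summed signal of 9 round spermatid markers was 18710 to 19990 per sample at stage VI and 6497 to 8560 at XIII-XIV, and that of 12 Sertoli cell markers was 8098 to 9000 at VIIa.b and 5016 to 5813 at XIII-XIV. Of these Sertoli cell markers, Ctsl alone read 2021 at VIIa.b and 70.7 at XIII-XIV. Shbg, Inha, Inhbb and Cst12 went the other way, so the sum does not stand for a common change of the list. Summed over 6 pachytene markers, the signal had its highest mean at IX-XI (13620 to 21170 per sample) and its lowest at VIII (9488 to 14730), with 13880 to 19310 at stage I. The sum of these 6 was also high in isolated round spermatids, at 10690 to 11580. Single markers differed: Piwil2 read 71.5 there against 479 in pachytene spermatocytes and Sycp1 93.9 against 230, while Ccna1 read 1600 against 770. No marker of these lists was at 0 in any group, but some means lay below the filter signal. Spam1 read 21.2 at XII and Inhbb 11.1 at VI, and without detection calls such signals do not show presence. For the GAPDH control, the 3′ signal divided by the 5′ signal, a measure of RNA quality, was between 1.06 and 1.54 in the stage means and highest at VIIc.d (1.16 to 2.05 per sample). The part of these differences in the kinesin results was not tested, but without the samples whose actin ratio exceeded 2.5, 13 members were again stage-regulated.

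Among the motors of cell division, Kif18b, a plus-end motor that limits the length of astral microtubules, had the widest range of all members by the constant used here. Its signal at stage I was 489, 460.4, 539, 383 and 408 in the 5 samples, and at stage VIIa.b it was 4.71, 57.7, 6.37, 29.2 and 7.58. The samples at VIIa.b were scattered between a few units and 57.7, yet all lay far below those of stage I, with stage means 23.0-fold apart (log2 4.53, SE 0.33, limma F-test adjusted p = 2.31e-19). The size depends on the added constant, since the signals at VIIa.b are near it: with a constant of 1 the log2 range was 4.97 and with the table median 3.00. With the median the range of Klc3, described below, was wider than that of Kif18b, at 3.61, and those of Kif7 and Kif15 were 1.42 and 1.09. Through the cycle the mean signal of Kif18b was 456 ± 62.6 at I, 301 ± 90.9 at II-III, 91.5 ± 15.4 at IV-V, 26.1 ± 12.7 at VI, 21.1 ± 22.8 at VIIa.b, 20.9 ± 4.76 at VIIc.d, 53.1 ± 16.9 at VIII, 64.97 ± 13.4 at IX-XI, 136 ± 40.3 at XII and 287 ± 89.5 at XIII-XIV (SD, n = 5, or 4 for IV-V, as for all stage means below). Kif18b changed at 4 of the 10 steps between adjacent stages: it fell by 1.61 on the log2 scale from II-III to IV-V and by 1.75 from IV-V to VI, and it rose by 1.13 from VIIc.d to VIII and by 1.03 from XII to XIII-XIV.

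Kif20b, a motor needed for the last steps of cytokinesis, had the second widest range within this role. Its 5 samples at stage I read 767, 584, 676, 536 and 482, and the 5 at stage VI read 76.6, 126, 131, 86.4 and 84.4. The 2 sets did not overlap, and the stage means differed 5.86-fold (log2 2.55, SE 0.17, adjusted p = 8.28e-22). It fell by 1.18 (SE 0.18) from II-III to IV-V, with no other called step. Its stage means were 609 ± 113 at I, 341 ± 109 at II-III, 146 ± 42.3 at IV-V, 101 ± 25.3 at VI, 117 ± 28.5 at VIIa.b, 114 ± 9.82 at VIIc.d, 175 ± 20.8 at VIII, 286 ± 26.2 at IX-XI, 430.4 ± 72 at XII and 539.7 ± 32.5 at XIII-XIV.

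Kif20a and Kif23 are motors of the spindle midzone, and Kif23 forms the centralspindlin complex with Racgap1. Kif20a read 327, 404, 269, 250.1 and 252 at stage I and 95.2, 58.4, 52.8, 70.8 and 46.2 at stage VIIc.d, a 4.43-fold range (log2 2.15, SE 0.17, adjusted p = 4.23e-16). Kif23 read 375, 298, 457, 361 and 291 at stage I and 60.6, 60.04, 112, 86.9 and 99.1 at stage IX-XI, a 4.13-fold range (log2 2.05, SE 0.19, adjusted p = 6.67e-15). Neither pair of groups overlapped. The stage means of Kif20a were 300.3 ± 65.8 at I, 206 ± 41.3 at II-III, 134 ± 7.63 at IV-V, 131 ± 18.6 at VI, 92.8 ± 26.9 at VIIa.b, 64.7 ± 19.3 at VIIc.d, 86.03 ± 20.9 at VIII, 127 ± 22.9 at IX-XI, 163 ± 13.1 at XII and 243 ± 16.5 at XIII-XIV. Those of Kif23 were 356 ± 67.3 at I, 236 ± 54.8 at II-III, 193 ± 42.8 at IV-V, 239 ± 67.4 at VI, 139 ± 32.8 at VIIa.b, 87.04 ± 27.8 at VIIc.d, 94.2 ± 24.6 at VIII, 83.7 ± 23.1 at IX-XI, 110.2 ± 9.11 at XII and 225 ± 22.5 at XIII-XIV, and its step from XII to XIII-XIV (log2 0.995, SE 0.19, adjusted p = 0.000292) was just short of 2-fold. Kif23 was also spread widely at stage VI, where its 5 samples ranged from 163 to 339.

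Kif22 is a chromosome-binding motor that pushes chromosome arms away from the poles. Its samples at stage I read 327, 247, 329, 331 and 316, and at stage IX-XI they read 93.6, 58.8, 78.9, 77.9 and 80.98. All samples of stage I lay above those of IX-XI, with a 3.80-fold range (log2 1.93, SE 0.13, adjusted p = 7.73e-18). Kif22 rose from XII to XIII-XIV, a called step of 1.25 (SE 0.13, adjusted p = 6.58e-10). Its stage means were 309.9 ± 35.9 at I, 217 ± 45.2 at II-III, 158 ± 8.52 at IV-V, 158 ± 7.22 at VI, 168 ± 23.5 at VIIa.b, 154 ± 20.7 at VIIc.d, 130.2 ± 14.1 at VIII, 78.04 ± 12.5 at IX-XI, 105 ± 15.4 at XII and 257 ± 42.9 at XIII-XIV.

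Kif15, which helps to keep the spindle bipolar, peaked at IV-V and was lowest at XIII-XIV. Its 4 samples at stage IV-V read 149, 138, 139 and 120.4, and the 5 at stage XIII-XIV read 58.9, 56.8, 35.2, 10.6 and 53.2. One sample of XIII-XIV was far below the other four, and the groups did not overlap (3.29-fold, log2 1.72, SE 0.22, adjusted p = 1.23e-09). No adjacent step was called, and the stage means were 81.3 ± 11.8 at I, 126 ± 23.2 at II-III, 137 ± 11.9 at IV-V, 135 ± 16.8 at VI, 89.7 ± 11.4 at VIIa.b, 90.3 ± 10 at VIIc.d, 76.9 ± 12.9 at VIII, 72.1 ± 9.12 at IX-XI, 55.1 ± 10.9 at XII and 42.9 ± 20.3 at XIII-XIV.

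Kif2c, which shortens microtubules at kinetochores, peaked at stage IX-XI with 1406, 1089, 1225, 1213 and 1198, against 533, 468, 499.7 and 475 at stage IV-V. The range was 2.46-fold (log2 1.30, SE 0.10, adjusted p = 1.28e-18), and the samples did not overlap. A second probe set for Kif2c had another course over the stages, with a correlation of -0.0378 between the 2 sets of 10 stage means; it was lowest at IX-XI, at 138.6, and highest at XIII-XIV, at 283.6. Of the other motors of cell division, Kif11, which slides spindle microtubules apart, passed the F-test with a 1.65-fold range and a peak at XIII-XIV, and Kif14 and Kif18a did not pass.

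**Figure D2:**
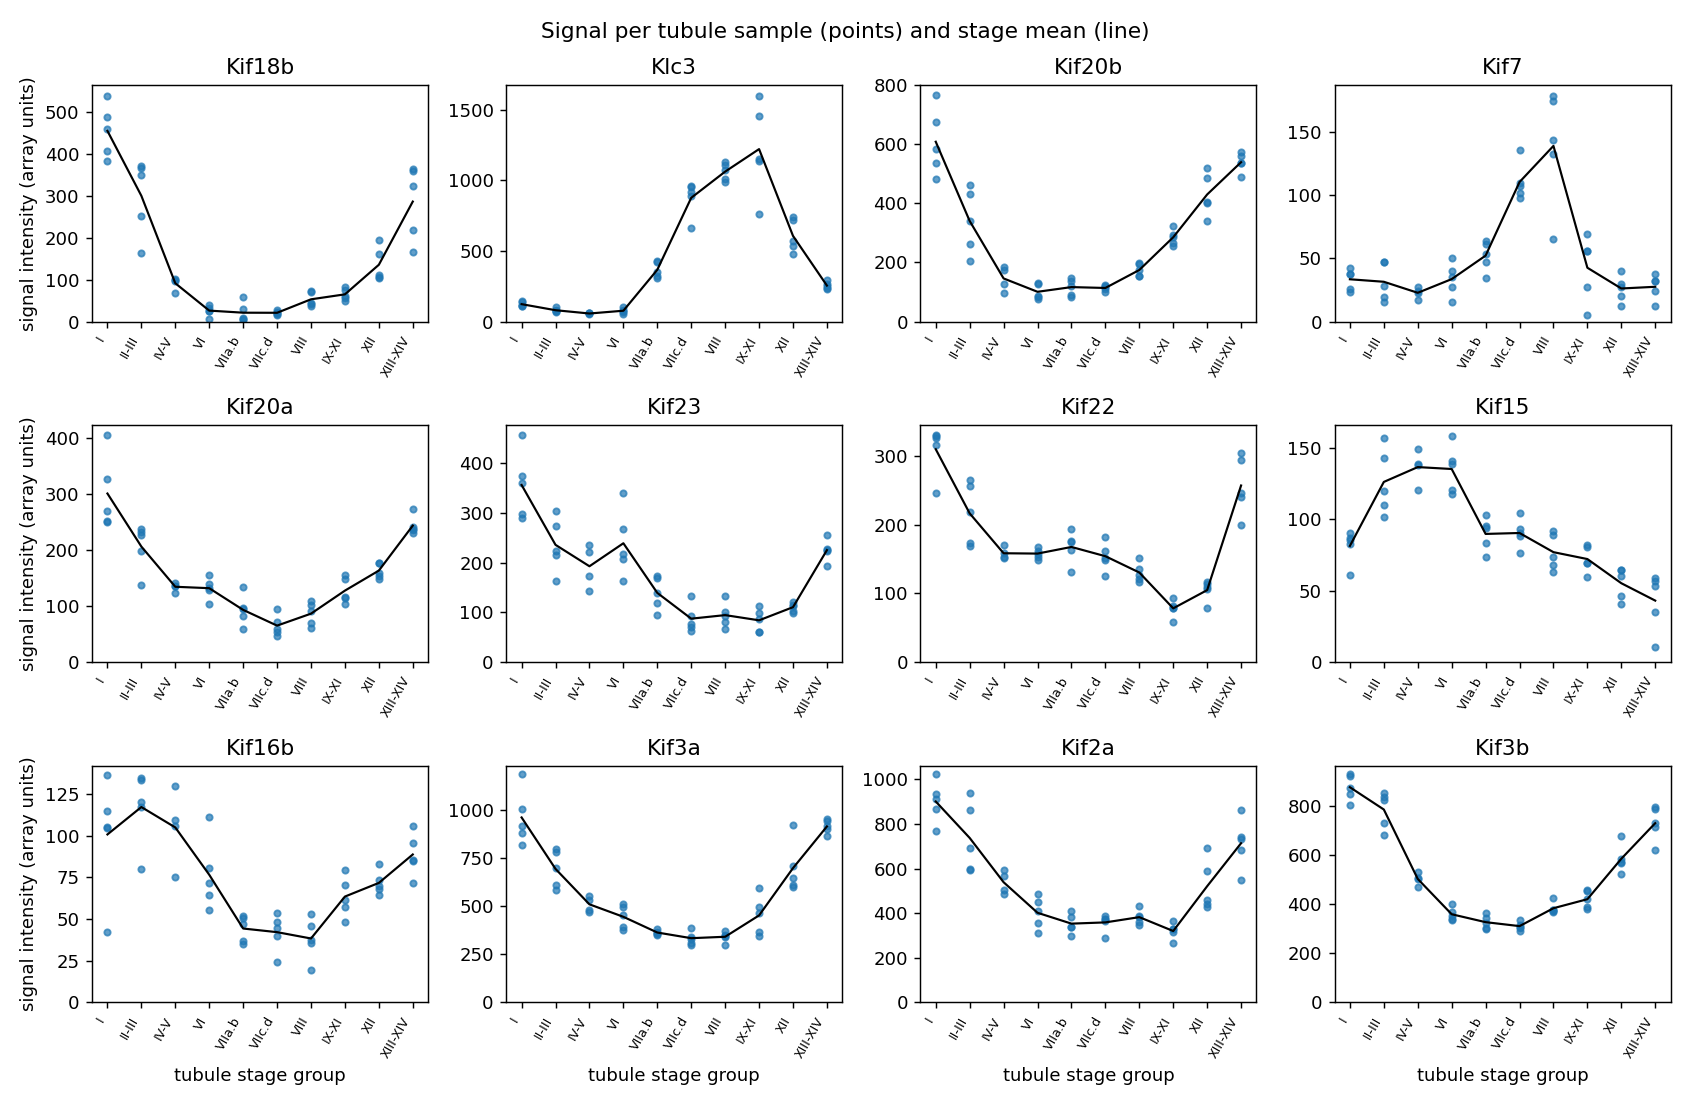
Signal intensity of each tubule sample (points) and the stage mean (line) for the 12 members with the widest range among those stage-regulated, by stage group, on linear axes that start at 0. Kif18b, Kif20b, Kif20a, Kif23, Kif22, Kif3a, Kif2a and Kif3b are highest at stage I, and Klc3 and Kif7 are low there.

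Among the motors of cilium and flagellum, Kif3a and Kif3b, which together form the motor of intraflagellar transport, had nearly the same course. Kif3a read 1004, 1186, 918, 879 and 819 at stage I and 386, 311, 331, 296 and 342 at stage VIIc.d. Kif3b read 919, 804, 930.4, 872 and 846 at stage I and 304, 313, 307, 334 and 291 at stage VIIc.d. The samples of the peak and the lowest stage were well apart in both genes, by 2.84-fold for Kif3a (log2 1.51, SE 0.11, adjusted p = 1.02e-19) and 2.79-fold for Kif3b (log2 1.48, SE 0.076, adjusted p = 4.34e-26). Neither gene had a called step between adjacent stages. The stage means of Kif3a were 961 ± 143 at I, 694 ± 97.2 at II-III, 509 ± 39.9 at IV-V, 444 ± 61.6 at VI, 363 ± 10.3 at VIIa.b, 333 ± 34.6 at VIIc.d, 341 ± 25.2 at VIII, 452 ± 101 at IX-XI, 698 ± 133 at XII and 914 ± 35.2 at XIII-XIV, and those of Kif3b were 875 ± 52.1 at I, 784 ± 74.4 at II-III, 502 ± 24.4 at IV-V, 358 ± 26.1 at VI, 326 ± 27.1 at VIIa.b, 309.7 ± 15.6 at VIIc.d, 383 ± 22.7 at VIII, 419 ± 35.7 at IX-XI, 584 ± 56.6 at XII and 729 ± 70.4 at XIII-XIV.

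Kif7, a kinesin of the primary cilium tip that regulates Hedgehog signalling, peaked at stage VIII. At stage VIII it read 65.3, 132, 144, 174 and 178, and at stage IV-V 27.02, 22.4, 24.3 and 17.03. The lowest sample of stage VIII was still above every sample of IV-V, and the range was 4.95-fold (log2 2.31, SE 0.37, adjusted p = 3.59e-08). From VIII to IX-XI it fell by 1.81 (log2, SE 0.35, adjusted p = 0.000113), and its stage means were 33.4 ± 8.43 at I, 31.4 ± 15.3 at II-III, 22.7 ± 4.23 at IV-V, 33.5 ± 13.1 at VI, 52.05 ± 11.8 at VIIa.b, 110.2 ± 14.9 at VIIc.d, 139 ± 45.4 at VIII, 42.5 ± 26 at IX-XI, 26.1 ± 10.4 at XII and 27.4 ± 9.80 at XIII-XIV. Kif7 exceeded the filter signal in 26 of the 69 samples, so most of its levels outside VIIa.b to VIII are low. Kif3c, a further partner of Kif3a, had a 2.30-fold range that did not pass (adjusted p = 0.0934), and Kif6, a kinesin of ciliated cells, did not pass either.

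Among the kinesin-1 chains only Klc3 was stage-regulated. Klc3 is a light chain known from the tails of rat spermatids, where it is found with outer dense fibres and mitochondria. At stage IX-XI its samples read 761, 1597, 1457, 1134 and 1152, and at stage IV-V 57.9, 58.04, 58.7 and 52.2. The samples of IX-XI were themselves widely spread, and the stage means were 19.2-fold apart (log2 4.27, SE 0.15, adjusted p = 3.77e-34). The values 1597 and 1457 came from replicates 2 and 3 of IX-XI, which had high actin ratios (2.654 and 2.722). The other samples of IX-XI lay on both sides of those of stage VIII, at 990.3 to 1128. By limma the step from VIII to IX-XI did not pass (0.158, SE 0.14, adjusted p = 0.531). The test thus did not separate IX-XI from VIII as the peak, and the part of RNA quality was not tested. The stage means of Klc3 were 123 ± 16 at I, 80 ± 11.4 at II-III, 56.7 ± 3.01 at IV-V, 76.5 ± 17.5 at VI, 366 ± 55.6 at VIIa.b, 875 ± 121 at VIIc.d, 1061 ± 59.6 at VIII, 1220 ± 324 at IX-XI, 606 ± 116 at XII and 254 ± 24.9 at XIII-XIV. Its called steps were +2.20 from VI to VIIa.b, +1.25 from VIIa.b to VIIc.d, -1.22 from XII to XIII-XIV and -1.02 from XIII-XIV to I (log2, each SE 0.14).

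The other kinesin-1 chains had ranges under 2-fold or did not pass. Kif5b, the heavy chain found in most tissues, ranged 1.69-fold, from 134 ± 15.8 at II-III to 229.5 ± 24.8 at VIIa.b, and passed the F-test without reaching 2-fold. Klc2 and Klc4 did the same with 1.81-fold and 1.61-fold. Kif5a, Kif5c and Klc1 did not pass, with an adjusted p of 0.0513 for Klc1.

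Kif16b, a motor of early endosomes, was the stage-regulated member among the cargo motors. It read 120.4, 133, 117, 79.8 and 135 at stage II-III and 19.4, 53.1, 35.2, 37.6 and 45.9 at stage VIII, a 2.89-fold range (log2 1.53, SE 0.22, adjusted p = 9.64e-09). The samples did not overlap, and the stage means were 101 ± 35 at I, 117 ± 22.2 at II-III, 105 ± 22.6 at IV-V, 76.5 ± 21.5 at VI, 44.2 ± 7.84 at VIIa.b, 42.05 ± 11.1 at VIIc.d, 38.2 ± 12.7 at VIII, 63.4 ± 12.1 at IX-XI, 71.6 ± 6.95 at XII and 88.7 ± 12.8 at XIII-XIV. The mean over the gene's probe sets gave a range of 0.80 (log2), and an added constant equal to the table median gave 0.98, both below 2-fold. Kif21a, which restrains microtubule growth, ranged 1.94-fold with its peak at XIII-XIV and passed the F-test alone, and Kif1a and Kif13a did not pass. Among the other members Kif2a, which shortens microtubules at spindle poles and in neurons, read 936, 1024, 911, 868 and 767 at stage I and 366, 327, 265, 314 and 327 at stage IX-XI. That was a 2.79-fold range (log2 1.48, SE 0.13, adjusted p = 4.75e-16) with no overlap, and the stage means were 901 ± 94.2 at I, 738 ± 158 at II-III, 539 ± 50.7 at IV-V, 402 ± 71.1 at VI, 353 ± 42.4 at VIIa.b, 358 ± 39.6 at VIIc.d, 382 ± 32.1 at VIII, 319.7 ± 36.5 at IX-XI, 521 ± 115 at XII and 714 ± 114 at XIII-XIV. Kif12 and Kif26b did not pass.

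For the members that peaked at stage I, the steps to the stages on either side were below 2-fold. From XIII-XIV to I, 0 of these 8 had a called change, although Kif23 (+0.64, SE 0.19, adjusted p = 0.0316) and Kif3b (+0.27, SE 0.076, adjusted p = 0.0215) passed without reaching 2-fold. From I to II-III none reached 2-fold, but 5 of the 8 fell with an adjusted p under 0.05: Kif20b by 0.87 (SE 0.17, adjusted p = 0.000133), Kif3a by 0.47 (0.00218), Kif22 by 0.52 (0.0022), Kif20a by 0.54 (0.0226) and Kif23 by 0.60 (0.0261). Over all probe sets 1.4% were called at the first of these steps, where Klc3 was the member called, and 3.64% at the second. Both shares include the 2-fold limit, and the share passing without it was not counted. These 8 were chosen for a highest mean at stage I, so a rise to it and a fall from it follow from that choice. The step from XIII-XIV to I did not pass for the other 6: Kif18b (adjusted p = 0.244), Kif20b (0.745), Kif20a (0.446), Kif22 (0.255), Kif3a (0.876) and Kif2a (0.115), so the test did not separate stage I from XIII-XIV as their peak. Over all 10 steps the members had 11 called changes, in Kif18b, Klc3, Kif20b, Kif7 and Kif22, and 1.71% of the steps of all probe sets were called. Of the steps with a called member, the share of all probe sets called was 2.12% from II-III to IV-V (Kif18b and Kif20b), 0.467% from IV-V to VI (Kif18b), 2.17% from VI to VIIa.b and 1.12% from VIIa.b to VIIc.d (Klc3 in both), 0.53% from VIIc.d to VIII (Kif18b), 3.41% from VIII to IX-XI (Kif7) and 0.934% from XII to XIII-XIV (Kif18b, Klc3 and Kif22). From IX-XI to XII, where 1.33% of all probe sets were called, no member reached 2-fold, but several passed by limma without it, among them Klc3 (-0.98, SE 0.14, adjusted p = 2.01e-06), Kif18b (+0.98, SE 0.33, adjusted p = 0.0453), Kif2a (+0.68, SE 0.13) and Kif3a (+0.63, SE 0.11).

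Several of these members had similar profiles. Over the 10 stage means, which share the same tubule samples, Pearson's r was 0.986 for Kif18b with Kif3b, 0.969 for Kif20a with Kif3a and 0.951 for Kif3a with Kif3b. For Klc3 it was -0.868 with Kif23 and -0.349 with Kif18b, and for Kif7 -0.865 with Kif16b. Klc3 and Kif7, with peaks at IX-XI and VIII, had 0.616 with each other. These values are descriptions over 10 stage groups.

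Second probe sets gave a partial check of these courses. Of the 28 probe sets of members that did not represent their gene, 17 were tested and 6 were stage-regulated, beside 32.5% of all probe sets tested. The stage-regulated members had 11 of these probe sets, of which 9 were tested and 6 were stage-regulated. For Klc3 the other probe set correlated at 0.983 with the representative over the 10 stage means and had a 14.4-fold range, with its peak at VIII. For Kif3a the other probe set correlated at 0.968 and had a 4.83-fold range with its peak at XIII-XIV, and those of Kif2a at 0.993 and 0.636. For Kif3b the other probe set correlated at 0.611, ranged 1.79-fold and did not pass as stage-regulated. That of Kif2c correlated at -0.0378, as given above. Among those of Kif16b, a probe set correlating at 0.938 ranged 2.70-fold. Another, correlating at 0.567, ranged 1.31-fold and did not pass (limma F-test adjusted p = 0.747).

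Genes that work with kinesins were read from lists of names. Of 20 measured partners of kinesins in the spindle and its midzone, 20 were tested and 15 were stage-regulated, 9 of them with the peak at stage I; Plk1, a kinase that recruits midzone proteins, went from 75.99 ± 36.2 at VIII to 906 ± 65.3 at I (12.2-fold) and Aurka, the spindle pole kinase, from 87.5 ± 16 at VI to 953 ± 155 at I (10.4-fold). Among kinesin-related genes outside the naming pattern 3 of 6 were stage-regulated: Cenpe, the kinetochore kinesin, went from 12.2 ± 8.02 at VIIa.b to 68.2 ± 9.93 at I (4.53-fold) and Kifc3, a minus-end motor, from 121 ± 25.1 at II-III to 325 ± 45.4 at VIIa.b (2.63-fold). Of 17 tested cargo adaptors and regulators 9 were stage-regulated, and 1 of these peaked at stage I. That was Plekhm2, a lysosome adaptor of kinesin-1, which went from 39.8 ± 29.6 at IX-XI to 324 ± 39.9 at I (8.66-fold), while Clstn1, a membrane protein that binds kinesin light chains, went from 35.5 ± 14.9 at I to 338 ± 26.7 at VIIa.b (9.09-fold). Of 16 tested tubulins and tubulin modifiers 12 were stage-regulated and 0 peaked at stage I; Tuba8, an alpha tubulin, went from 190.2 ± 12.1 at IV-V to 2508 ± 374 at VIII (12.8-fold) and Hdac6, the tubulin deacetylase, from 10.8 ± 4.63 at XIII-XIV to 173 ± 25.2 at VIIc.d (11.6-fold). The median range was 1.53 (log2) for the spindle partners, 0.993 for the related genes, 1 for the adaptors and 1.27 for the tubulins, against 0.886 for all probe sets, of which 32.5% were stage-regulated. Stage I was the peak of 9.85% of all stage-regulated probe sets, and the small counts for adaptors and tubulins lie near that share.

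Among the isolated cells, Kif21a and Kif5c were higher in Sertoli cells than in germ cells. From spermatogonia plus early spermatocytes to pachytene spermatocytes Kif5b fell and Kif3a, Kif3b, Kif2c and Kif20b rose. Klc3 rose from pachytene spermatocytes to round spermatids. In the 15 isolated cell samples 28 members were tested, without Kif12, Kif1a and Kif1b. Set against the average over the 3 kinds of germ cells, 4 members were higher in Sertoli cells (24.1% of all 20253 probe sets were called higher) and 12 were lower (29.7% were called lower). The median change was -0.66 (log2) for the members and -0.15 for all probe sets. With an added constant equal to the table median, 7 were lower. Germ cell groups differed from one another, so the values of each are given.

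Kif21a, higher in Sertoli cells than in every germ cell group, read 620.2, 592, 455 and 481 in the 4 Sertoli samples. It read 93.1, 69.2 and 104 in spermatogonia plus early spermatocytes, and its highest value was 35.5 in pachytene spermatocytes and 27.9 in round spermatids. No sample of the germ cells reached the Sertoli cells, and the change was 12.3-fold (log2 3.62, SE 0.17, adjusted p = 1.30e-12). Kif5c, a heavy chain best known from neurons, read 118, 179, 104 and 147 in Sertoli cells and at most 35.9 in any germ cell sample, a 5.31-fold change (log2 2.41, SE 0.33, adjusted p = 2.24e-06). With the table median as constant it was 1.43. A second probe set of Kif5c, which did not pass the filter in the isolated cells, had the other order, with a mean of 10.7 in Sertoli cells and 27.7 to 35.4 in the germ cell groups.

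Kif5b and Kif1c had their higher signals in Sertoli cells and in the germ cells of the younger rats. The Sertoli samples of Kif5b read 717, 694, 529.5 and 679, and those of spermatogonia plus early spermatocytes 630.1, 712 and 679.6. Kif5b read 52.6, 52.4, 39.6 and 46.5 in pachytene spermatocytes and 30.99, 30.6, 24.4 and 27.6 in round spermatids. Its 6.18-fold excess in Sertoli cells over the germ cell mean (log2 2.63, SE 0.11, adjusted p = 2.83e-13) lay against the 2 later germ cell groups. Kif1c, a motor of vesicle transport, read 27.5, 48.4, 75.9 and 104 in Sertoli cells. The samples of spermatogonia plus early spermatocytes read 57.4, 43.4 and 12.7, and it was at most 2.49 in the later germ cells. These groups overlapped for both genes. Kif1c was called higher in Sertoli cells (adjusted p = 1.32e-06), but the size of its change is set by the added constant, which exceeds its signal in the later germ cells: it was 2.34 (log2, SE 0.31), 3.14 with a constant of 1 and 0.92 with the table median, the last below 2-fold.

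The germ cell preparation of younger rats also carried signal of somatic cells. The 12 Sertoli cell markers summed to 4452 to 6141 in spermatogonia plus early spermatocytes, 19800 to 28490 in Sertoli cells and 721 to 1068 in pachytene spermatocytes. All 8 Leydig cell markers had means above the filter signal in spermatogonia plus early spermatocytes, with sums of 6542 to 10050, and in Sertoli cells, with sums of 5831 to 7682, against 277 to 472 in pachytene spermatocytes. Of 8 macrophage and blood markers 7 were above it in spermatogonia plus early spermatocytes, with sums of 2960 to 3604, against 409.9 to 503 in Sertoli cells. Peritubular myoid markers summed to 2998 to 6624 in Sertoli cells, and pachytene markers to 3772 to 4753 there against 9491 to 14450 in pachytene spermatocytes. The pachytene markers summed to 10690 to 11580 in round spermatids, so this sum did not set pachytene spermatocytes apart from those. Of the 6 markers, 2 were called lower in round spermatids than in pachytene spermatocytes and 1 higher. Spermatogonia markers summed to 895 to 1248 in spermatogonia plus early spermatocytes, where 6 of 7 were above the filter signal. For Sertoli cells the sum was 1458 to 1834, with 3 of 7 above that signal. The sum therefore did not set the labelled cells apart, but Uchl1 made up most of it in Sertoli cells (1181 against 451.4). Nanos3 was low in both (10.71 against 7.014). The labelled germ cells read higher for Kit (150.3 against 42.87), Gfra1 (58.24 against 23.22) and Sohlh1 (101.7 against 59.53). They also did for Itga6 (54.77 against 16.92) and, by little, Dmrt1 (249.3 against 232.6). No marker was at 0, but some means lay far below the filter signal, such as Tagln at 1.83 in pachytene spermatocytes. Such signals do not show presence. The part of these cells in the signal of Kif5b, Kif1c, Kif21a, Kif5c and Kif7 was not tested, and the age of the rats and the germ cell group cannot be told apart.

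**Figure D3:**
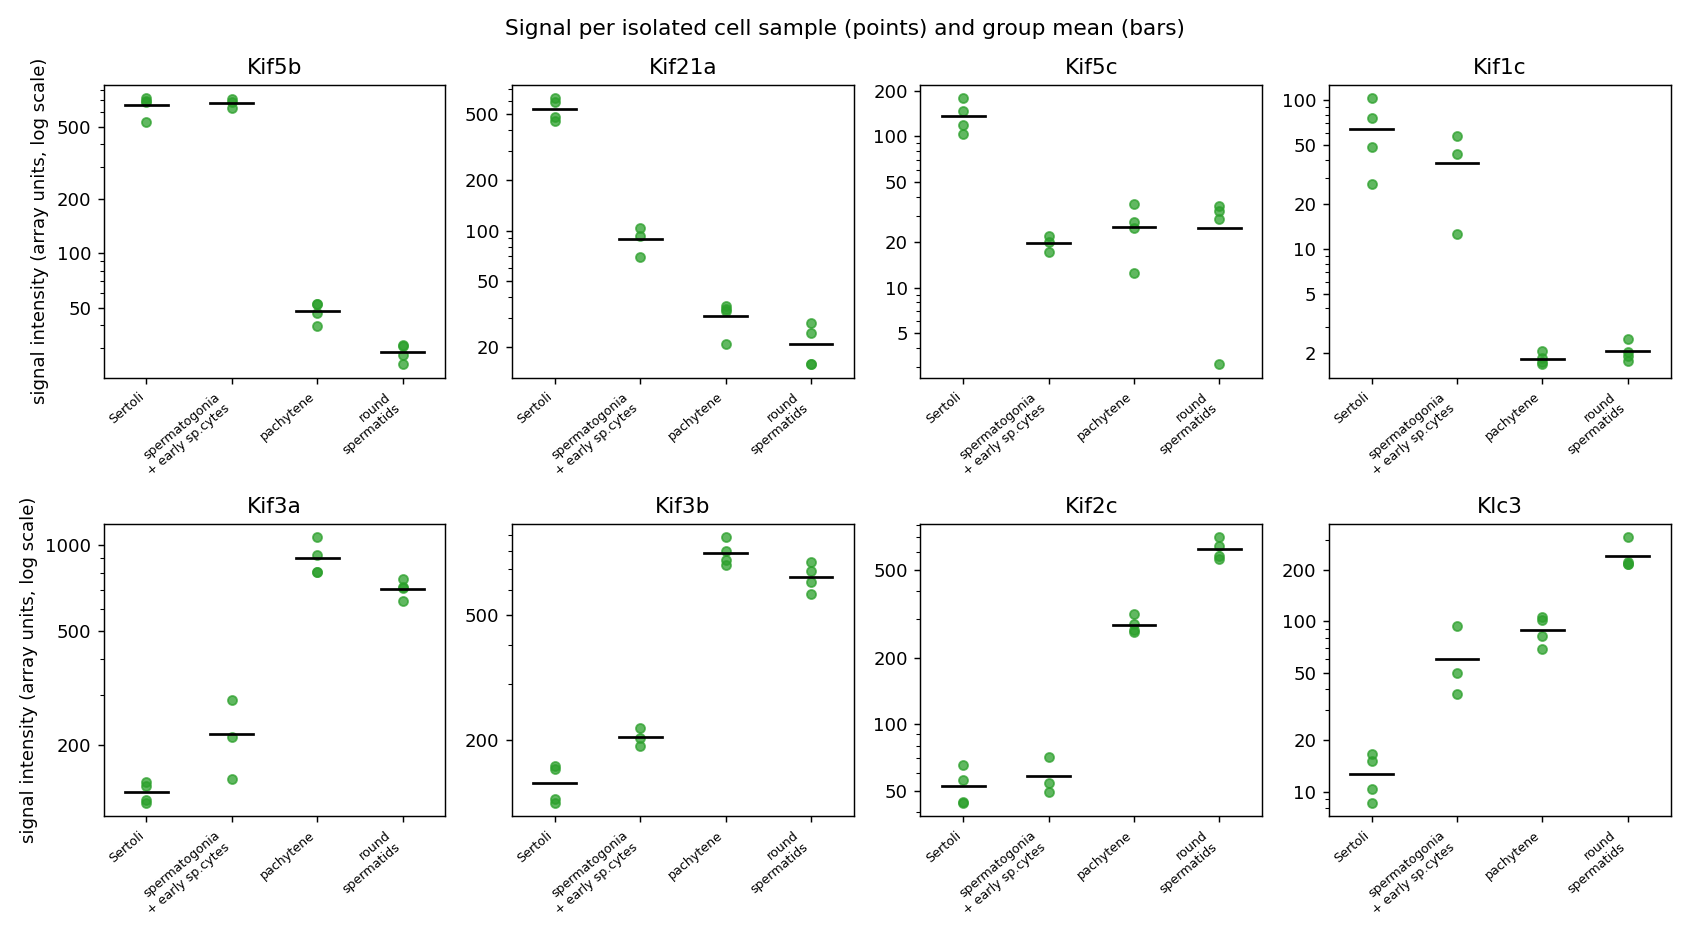
Signal intensity of each isolated cell sample (points) and the group mean (bars) for 8 kinesin genes, on log axes, in Sertoli cells, spermatogonia plus early spermatocytes, pachytene spermatocytes and round spermatids. Kif5b and Kif1c are high in the first 2 groups, Kif21a and Kif5c in Sertoli cells, and Kif3a, Kif3b, Kif2c and Klc3 in the later germ cells.

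Of the members lower in Sertoli cells, Klc3 read 16.5, 15.02, 8.56 and 10.3 in Sertoli cells and from 37.2 to 313 in the germ cells (6.42-fold, log2 -2.68, SE 0.20, adjusted p = 8.78e-10). With the table median as constant its change was -1.47, smaller in size than that of Kif3a, at -1.65, and Kif20b, at -1.58. Kif2c (3.93-fold) and Kif18b (3.92-fold) were lower too, and some samples of spermatogonia plus early spermatocytes lay within the Sertoli range of both. Kif20b was 3.69-fold and Kif3a 3.66-fold lower in Sertoli cells, with no overlap. The other 7 were Kif6, Kif26b, Kif3b, Kif20a, Kif23, Kif5a and Kif11, from 3.49-fold for Kif6 to 2.00-fold for Kif11. By role, 6 of 10 motors of cell division and 3 of 5 of cilium and flagellum were lower in Sertoli cells, and 0 of either were higher, beside 29.7% lower and 24.1% higher over all probe sets.

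Pachytene spermatocytes differed from spermatogonia plus early spermatocytes in 14 of the 28 members, 6 higher (18.5% of all probe sets were called higher) and 8 lower (28.6% called lower). The median change was -0.02 for the members and -0.15 for all probe sets, and quantile normalization moved the latter to 0.12. With the table median as constant 3 were lower, and with the filter at 2 times the median 5 were. The changes of the 5 members with the largest change each way kept their direction under that scaling. Some members not called by their representing probe set passed by another one. These were Kif13a with -3.20 (log2), from a mean of 69.4 to 3.05, Klc1 with -2.90, Kif26b with 1.25 and Klc3 with 1.07. The same probe sets of Kif13a and Klc1 were higher in Sertoli cells than in germ cells, by 1.92 and 1.04.

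By the probe sets that represent the genes, the 5 members with the largest increase were Kif2c, Kif3a, Kif20b, Kif3b and Kif18b. Kif2c read 49.2, 70.7 and 54.3 in spermatogonia plus early spermatocytes and 266, 263, 285 and 316 in pachytene spermatocytes (4.59-fold, log2 2.20, SE 0.15, adjusted p = 2.89e-10). Kif3a read 289, 213 and 153 in the first and 925, 807, 807 and 1069 in the second group (4.17-fold, log2 2.06, SE 0.16). Kif20b read 212, 147 and 157 in the first and 777, 676, 675 and 765 in the second (4.15-fold, log2 2.05, SE 0.19). In each of these 3 genes the groups were far apart. The mean over the probe sets gave a larger change for Kif3b, 3.46 (log2), and for Kif3a, 2.54, and the second probe set of Kif3b alone gave 5.00, from a mean of 11.2 to 480.9. By its representing probe set Kif3b rose 3.78-fold (log2 1.92, SE 0.12), Kif18b 3.03-fold (log2 1.60, SE 0.23) and Kif2a 2.22-fold (log2 1.15, SE 0.11), also without overlap.

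Kif5b had the largest decrease, 12.9-fold (log2 -3.69, SE 0.14, adjusted p = 9.64e-14), with the sample values given above. Kif1c was called lower (adjusted p = 2.54e-05), and with every pachytene sample below the added constant the size of its change is set by that constant: it was -2.44 (log2, SE 0.40), -3.53 with a constant of 1 and -0.80 with the table median. With the median, Kif3c, named below, had -0.90, also below 2-fold, and Kif7 -1.04. Kif7 read 83.7, 90.3 and 58.7 in spermatogonia plus early spermatocytes and 17.5, 18.8, 15.4 and 8.34 in pachytene spermatocytes (4.15-fold lower, log2 -2.05, SE 0.27). Kif15 read 248, 206 and 177 in the first and 69.2, 82.3, 61.2 and 54.3 in the second group (3.00-fold lower, log2 -1.58, SE 0.17), and Kif3c was 2.97-fold lower (log2 -1.57, SE 0.35). Kif21a, Kif18a, a motor that aligns chromosomes at the spindle equator, and Kif23 made up the rest, at 2.61-fold, 2.59-fold and 2.02-fold lower. Kif18a exceeded the filter signal in 6 of 69 samples, among them the 3 of spermatogonia plus early spermatocytes, which read 81.3, 77.2 and 91.1.

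The motors of cell division went both ways between these germ cells: 3 of 10 were higher in pachytene spermatocytes (Kif2c, Kif20b and Kif18b) and 3 lower (Kif15, Kif18a and Kif23). Kif20a changed by 0.15 (SE 0.18, adjusted p = 0.489) and Kif22 by -0.34 (SE 0.12, adjusted p = 0.0163) on the log2 scale, neither reaching 2-fold. With the samples of high actin ratio left out, 6 members were higher and 7 lower.

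**Figure D4:**
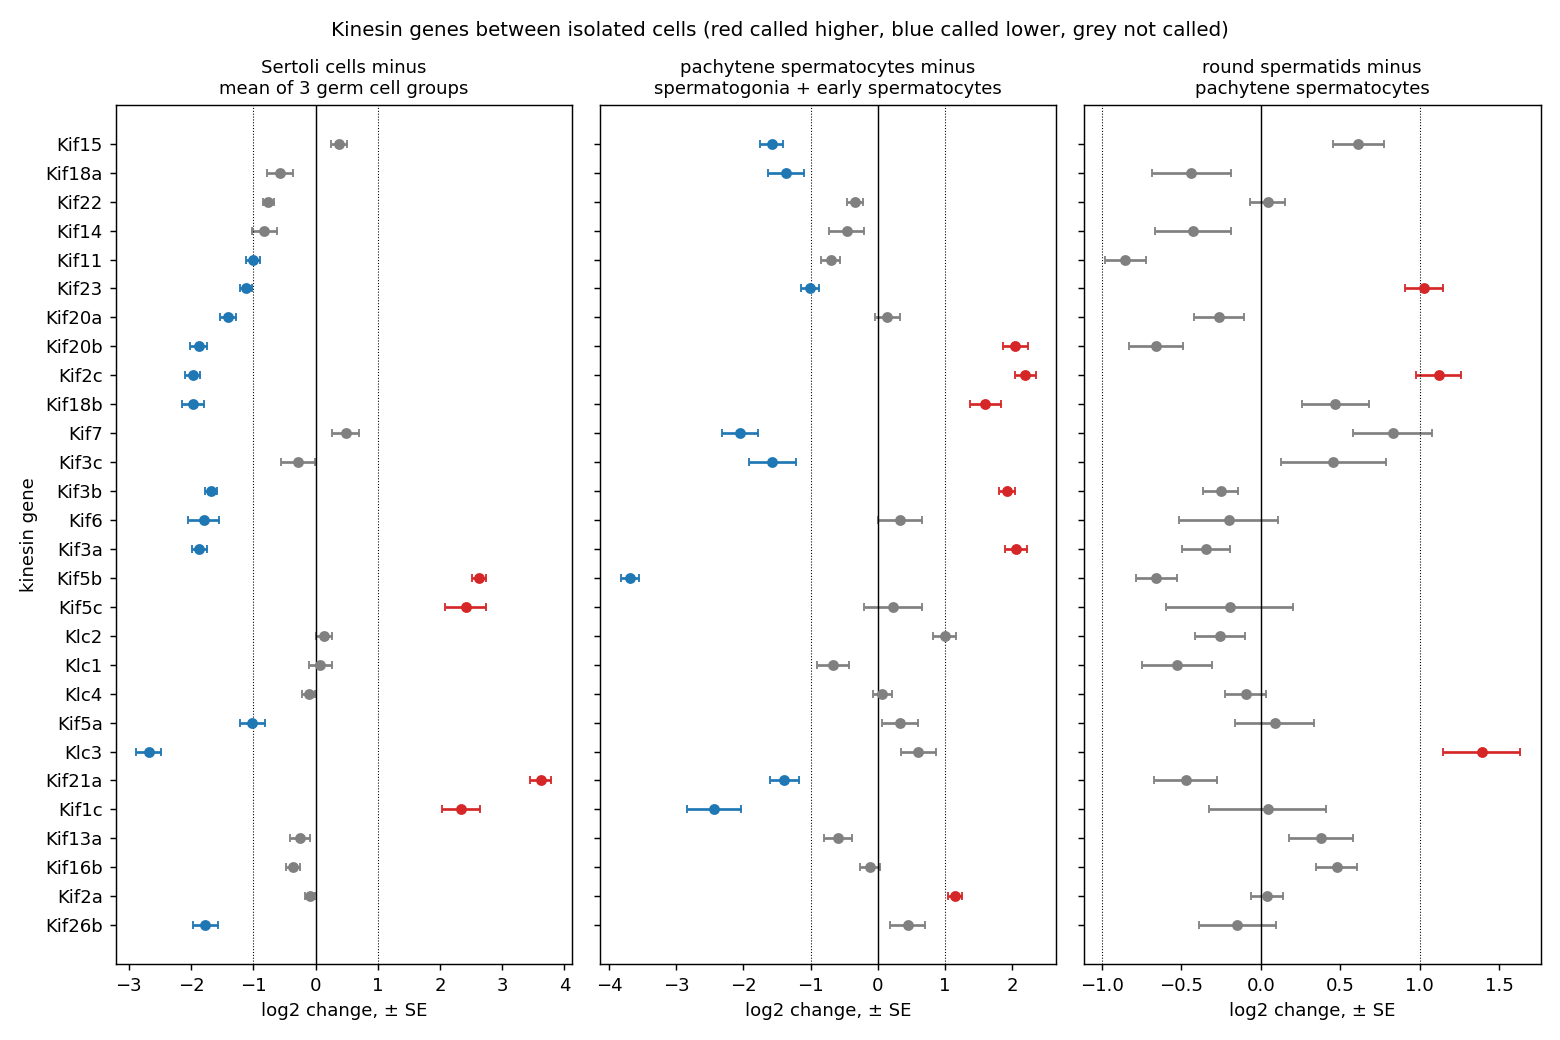
Change of the 28 tested kinesin genes in 3 comparisons of isolated cells (log2 of signal plus 5.11, points, with the standard error as bars), with members grouped by role from the motors of cell division at the top to the other members at the bottom. Dotted lines mark 2-fold; Kif21a, Kif5b, Kif5c and Kif1c lie right of the line for Sertoli cells, and Kif5b lies farthest left for pachytene spermatocytes.

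Fewer members were called between round spermatids and pachytene spermatocytes. Of 28 members 3 were higher (8.9% of all probe sets were called higher) and 0 were lower (13.1% called lower); by limma, 3 had an adjusted p under 0.05 in the lower direction without a 2-fold change, and 7 an unadjusted p under 0.05. Klc3 read 105, 81.5, 102 and 68.7 in pachytene spermatocytes and 222, 313, 218 and 217 in round spermatids (2.62-fold, log2 1.39, SE 0.24, adjusted p = 9.88e-05). Kif2c read 266, 263, 285 and 316 in the spermatocytes and 637, 703, 577 and 559 in the spermatids (2.17-fold, log2 1.12, SE 0.14, adjusted p = 2.26e-06). Kif23 read 157, 155, 148 and 169.5 in the spermatocytes and 380.4, 285, 355 and 294 in the spermatids (2.04-fold, log2 1.03, SE 0.12, adjusted p = 6.83e-07), and in none of these did the groups overlap. Kif23 is close to the 2-fold limit, and without round spermatid replicate 1 its change was 0.96 and without replicate 3 it was 0.99. For Kif2c the mean over both probe sets gave 0.19 (adjusted p = 0.149), and the second probe set alone gave -0.745 (adjusted p = 4.97e-05). The GAPDH ratio was 1.75 to 2.44 in round spermatids and 1.07 to 1.5 in pachytene spermatocytes, and its part in these results was not tested. The 3 members below 2-fold in the lower direction were Kif11 (-0.85, SE 0.13), Kif20b (-0.66, SE 0.17) and Kif5b (-0.66, SE 0.13).

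The highest isolated level of Klc3, 242 ± 46.9 in round spermatids, stood below its tubule means at VIIa.b to XIII-XIV. By its representing probe set, the tubule means of Kif2c at VIIc.d to XIII-XIV were 977 to 1226, against 619 ± 65.1 in round spermatids, where it was highest among isolated cells. The second probe set of Kif2c was highest in pachytene spermatocytes, at 301.4, against 178.2 in round spermatids. Its tubule means, 138.6 to 283.6, all lay below that pachytene level. Elongated spermatids, which are present in tubules, were not among the isolated cells. Arrays of cells and of tubules were scaled in the same way, and no test was made between them.

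Whole testis, in which tubules lie in interstitial tissue, was compared with the mean of the 10 stage means of the tubules. Of 29 tested members 0 changed by the call used here (3.51% of all 22504 probe sets did), and 9 had an adjusted p under 0.05 by limma without reaching 2-fold (32.6% of all did), with 9 at an unadjusted p under 0.05 as well. Kif18b was higher in whole testis by 0.83 (SE 0.24, adjusted p = 0.00544), with 127, 181, 132, 201 and 129 in the 5 samples, and Kif20b by 0.50 (SE 0.13), Kif22 by 0.39, Klc3 by 0.35 and Kif5b by 0.34. These changes set whole testis against a mean of log2 stage means, which lies below the linear mean for a gene of wide range. On linear means Kif18b was nearly level, 154 in whole testis against 145.6 over the stages, and Kif20b read 334.2 against 285.7. For Klc3 the linear means went the other way, 360.4 in whole testis against 471.9 over the stages. Kif26b was lower by a log2 change of -0.59 (SE 0.16), Kif11 of -0.38, Kif3b of -0.26 and Kif2c of -0.23. Leydig cell markers summed to 2167 to 2702 in whole testis and to 218 to 460.3 in the tubules, and the part of interstitial cells was not tested.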

How the data were processed

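Signal intensities of 69 rat Affymetrix arrays were taken from the deposited table: linear MAS5 signals, per the submitters' processing notes, which the authors had scaled so that each array has the same trimmed mean, as the values show. No detection calls were used. Probe sets were named from the platform annotation (20826 with 1 gene, 436 with several). Of 31099 probe sets, 57 controls were left out. Log2 of the signal plus 5.11 (the tenth percentile of all values) was fitted with limma 3.58.1 (trended eBayes, R 4.3.3, data.table version 1.17.8), separately for tubules, isolated cells, and whole testis with tubules. Probe sets above the table median of 43.7 in at least 3 samples of the fit were tested, with Benjamini-Hochberg adjustment over all of them. A call needs an adjusted p under 0.05 and a 2-fold change; fold changes on this scale understate those of low signals. Scripts were tested on simulated data.

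Full values are given for the 12 stage-regulated members with the widest range, for up to 5 called members each way per cell comparison, and for 2 called genes per pathway list; Kif2c over stages and other genes were named after their values were seen. The members and lists were chosen with earlier results of these data known. Replicate numbers entered only as an alternative, since no label ties them to rats. In the tubules 36 of 49 samples correlated best with their own number, a hint of pairing. The stage p-values may therefore treat samples that share rats as independent. Other alternatives changed the constant, filter, scaling, array weights, probe set choice and samples. Proteins were not analysed here.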

Additional observations from a re-analysis of the deposited data

Results flagged for a closer look

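In 68 groups of values checked, 4 had 1 sample far from the others for the size of the group; chance alone marks about 1 in 20 such groups. Kif22 at stage I read 246.6 in replicate 2 and 315.5 to 331.2 in the other samples. Klc3 at stage IV-V read 52.24 in replicate 5 and 57.88 to 58.71 in the others, a small gap in a narrow group. In round spermatids, Klc3 read 312.6 in replicate 2 and 217.4 to 221.8 in the others, and Kif18b read 489.9 in replicate 1 and 386.5 to 404.1 in the others. With each sample left out in turn, the change of Klc3 from pachytene spermatocytes to round spermatids was 1.27 to 1.47 (log2) and the range of Kif22 over the stages 1.84 to 2.01.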

How the results depend on the processing

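No result changed direction under any setting run. With the table median as the added constant, 6 steps between adjacent stages were called, 7 members were lower in Sertoli cells and 3 were lower in pachytene spermatocytes; with the filter at 2 times the median, 5 were lower in pachytene spermatocytes. The cause was not tested. With 1 sample left out at a time, the counts were 13 to 14 stage-regulated members, 10 to 13 steps, 4 higher and 10 to 12 lower in Sertoli cells, 6 to 7 higher and 6 to 8 lower in pachytene spermatocytes, 2 to 3 higher and 0 lower in round spermatids, and 0 in whole testis. The fit with the replicate block gave 13 stage-regulated members, 12 steps, 4 and 12 for Sertoli cells, 7 and 8 for pachytene spermatocytes, 3 and 0 for round spermatids and 0 for whole testis. In the tubules, the deviations of 216 same-numbered pairs of samples correlated at -0.1 to 0.23 (mean 0.0568; 864 other pairs, mean -0.0141) and 36 of 49 samples correlated best with their own number, a hint of pairing from the data; in isolated cells it was 7 of 15. Without the 6 samples of high actin ratio, a choice made after seeing the data, there were 13 stage-regulated members, 11 steps, 4 and 11, 6 and 7, 3 and 0, and 0. Of the values for single genes 369 kept their side of the threshold and 13 did not under other settings, and 1396 did and 8 did not with 1 sample left out; for whole testis, where 0 members were called, the threshold is the adjusted p alone. Those lost under the median constant were Kif16b over stages (0.975), Kif1c in both comparisons (0.918 and -0.797), Kif3c (-0.901), Kif23 in round spermatids (0.881) and Klc3 in whole testis (0.218). Quantile normalization ended those of Kif23 (0.995) and Kif5b in whole testis (0.278). The mean over probe sets ended those of Kif16b (0.80), Kif2c in round spermatids (0.186) and, in whole testis, Kif11 (-0.038), Kif26b (-0.248) and Kif2c (-0.174). In whole testis, leaving out 1 sample also ended Kif3b (-0.178, replicate 1), Klc3 (0.297, replicate 1, and 0.295, replicate 5), Kif5b (0.259, replicate 2), Kif2c (-0.191, replicate 3) and Kif26b (-0.414, replicate 5). Kif7, Kif1c, Kif18a and Kif6 had signals near the filter, and no detection calls were used, which limits what their low levels show.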

Other observations

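The genes that work with kinesins differed between the isolated cells as well, by the same call and fit. Of 17 tested cargo adaptors and regulators, 9 were higher and 3 lower in Sertoli cells than in the germ cells, and in pachytene spermatocytes 0 were higher and 9 lower than in spermatogonia plus early spermatocytes. Over all probe sets 24.1% were higher and 29.7% lower in Sertoli cells, 18.5% and 28.6% in pachytene spermatocytes and 8.9% and 13.1% in round spermatids, and the counts below stand beside the same shares. By limma, Clstn1, which links kinesin light chains to membrane cargo, was higher in Sertoli cells by 4.62 (log2, SE 0.19, adjusted p = 2.89e-13) and lower in pachytene spermatocytes by a change of -4.56 (SE 0.24). Trak1, which couples kinesin-1 to mitochondria, had changes of 3.18 (SE 0.15) and -3.06 (SE 0.19) in the same comparisons. The somatic marker signal in the preparation of young rats given above stands beside these values too, and its part was not tested.

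Of 20 spindle and midzone partners, 12 were lower and 2 higher in Sertoli cells, 6 were higher and 1 lower in pachytene spermatocytes, and 6 were lower and 0 higher in round spermatids. Aurka rose by 3.15 (SE 0.20) and Cdca8, a subunit of the chromosomal passenger complex, by 3.27 (SE 0.28) from spermatogonia plus early spermatocytes to pachytene spermatocytes, and Cdca8 fell by 1.05 (SE 0.26, adjusted p = 0.00246 by limma) in round spermatids. Of 17 tubulins and modifiers, 5 were higher and 7 lower in Sertoli cells, 6 higher and 7 lower in pachytene spermatocytes and 3 higher and 2 lower in round spermatids. Hdac6 had a change of -4.65 (SE 0.16) in pachytene spermatocytes and of 3.68 (SE 0.15, adjusted p = 1.98e-12 by limma) in round spermatids. Spast, which severs microtubules, had a change of 2.95 (SE 0.12) in pachytene spermatocytes, and Tubb5, a beta tubulin, one of -3.97 (SE 0.15). Among the 6 kinesin-related genes outside the naming pattern, 2 were lower in Sertoli cells and 0 were called in either germ cell comparison by limma; Kifc3 had an adjusted p of 0.000151 for a change of 0.91 (SE 0.18) in pachytene spermatocytes and Kifc1 one of 0.0819.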
